A study of Homo sapiens with 16 samples.

Results

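MYC and its partner and antagonist genes were followed in breast cancer xenografts that carried 1 of 3 doxycycline-inducible hairpins. The 8 members were MYC, MYCN, MAX, MXD1, MXD3, MXD4, MXI1 and MNT, and all 8 were among the 18377 genes that the array table measured with a transcript cluster (a set of array probes summarised to 1 value) annotated to a single symbol. Each member had exactly 1 such cluster, so no choice between clusters was needed. The members were listed by name for their biology, with no measured value as a criterion, but with earlier results of these data known. BT474, a HER2-positive luminal breast cancer line, had been transduced with an inducible lentiviral vector and grown as orthotopic mammary tumours in mice that lack normal immunity. Tumours with SHP2 miR1 (7) and SHP2 miR2 (3) were set against tumours with CTRL miR (6), 1 array per tumour. SHP2 is the tyrosine phosphatase encoded by PTPN11. All 3 groups carried the vector and received doxycycline in the drinking water (2 g per liter) for 30 days, so the control tumours shared both. The labels do not give the strain or age of the mice, and each group is 1 transduced BT474 population. Mouse host cells remained in the dissected tissue, and whole-tumour RNA cannot separate fewer cells of a type from less RNA per cell. Nothing in the labels ties tumours to cultures or litters, so p-values measure the spread between tumours.

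MYC is a basic helix-loop-helix leucine zipper transcription factor that binds DNA only as a dimer with MAX. The dimer recognises the E-box CACGTG and activates genes for ribosome biogenesis, nucleotide synthesis, amino acid uptake and cell-cycle entry. MXD1, MXD3, MXD4, MXI1 and MNT compete for MAX, bind the same element and recruit SIN3 corepressor complexes. MYCN is a paralogue of MYC best known from neural tissue and neuroblastoma.

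The values are log2 signals as deposited, and differences are on that log2 scale with a standard error (SE). A gene was called at a limma adjusted p below 0.05 over all 18377 genes (Benjamini-Hochberg). The PTPN11 log2 signal averaged 6.93 ± 0.19 in SHP2 miR1 tumours (SD, n = 7), 6.46 ± 0.10 in SHP2 miR2 tumours (n = 3) and 8.40 ± 0.16 in CTRL miR tumours (n = 6). Each SHP2 miR tumour was below every CTRL miR tumour, as the labels have it. A list of 11 luminal HER2-positive breast cancer markers averaged 9.72 to 9.99 log2 units per tumour with miR1, 9.67 to 9.95 with miR2 and 9.25 to 9.90 with CTRL miR. Control tumours 2 and 5 stood apart from 1, 3, 4 and 6. IRS4, an insulin receptor substrate, had 3.16 and 3.77 log2 units in tumours 2 and 5, against 7.14 to 8.29 in the other 4, and 2.97 to 3.91 in the 10 knockdown tumours. HOXD10 and LIN28B were likewise lower in tumours 2 and 5, with means of 3.80 against 7.60 and of 2.27 against 4.33. The arrays also fell into 2 sets by the levels of 5 noncoding RNAs. Set A held miR1 tumours 1 to 4 and CTRL tumours 1 to 3, set B held all other arrays, including every miR2 array, and the labels do not name the difference.

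MYC had the widest spread over the tumours of the 8 members. Its log2 signal was 7.07, 7.33, 7.26, 7.52, 6.96, 7.18 and 7.28 in SHP2 miR1 tumours 1 to 7. It was 4.73, 5.28 and 5.27 in SHP2 miR2 tumours 1 to 3. CTRL miR tumours 1 to 6 had 7.68, 7.14, 7.61, 7.61, 6.99 and 7.75. All 3 miR2 tumours lay below every other tumour, while the miR1 and CTRL ranges overlapped. Over the 16 tumours MYC had an SD of 0.94, larger than that of 99.6% of the measured genes.

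With SHP2 miR2, MYC fell by 2.37 log2 units relative to CTRL miR (SE 0.17, adjusted p = 1.88e-08). That left 19.3% of the control signal, with a 95% interval of 15.1% to 24.7%. MYC ranked 12 of 18377 genes by p in that contrast, in which 30.0% of all genes were called. With SHP2 miR1 the MYC difference from CTRL miR was -0.23 (SE 0.13, adjusted p = 0.382), and its interval of -0.51 to 0.05 leaves 70.2% to 103% of the control signal. The miR1 minus miR2 difference was 2.14 (SE 0.17, adjusted p = 5.08e-08), so the MYC signal with miR1 was 4.40 times that with miR2. In order of mean, MYC was lowest with miR2 (5.09 ± 0.31, n = 3), then with miR1 (7.23 ± 0.18, n = 7) and then with CTRL miR (7.46 ± 0.32, n = 6). The miR1 and CTRL means did not differ beyond their spread.

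**Figure D1:**
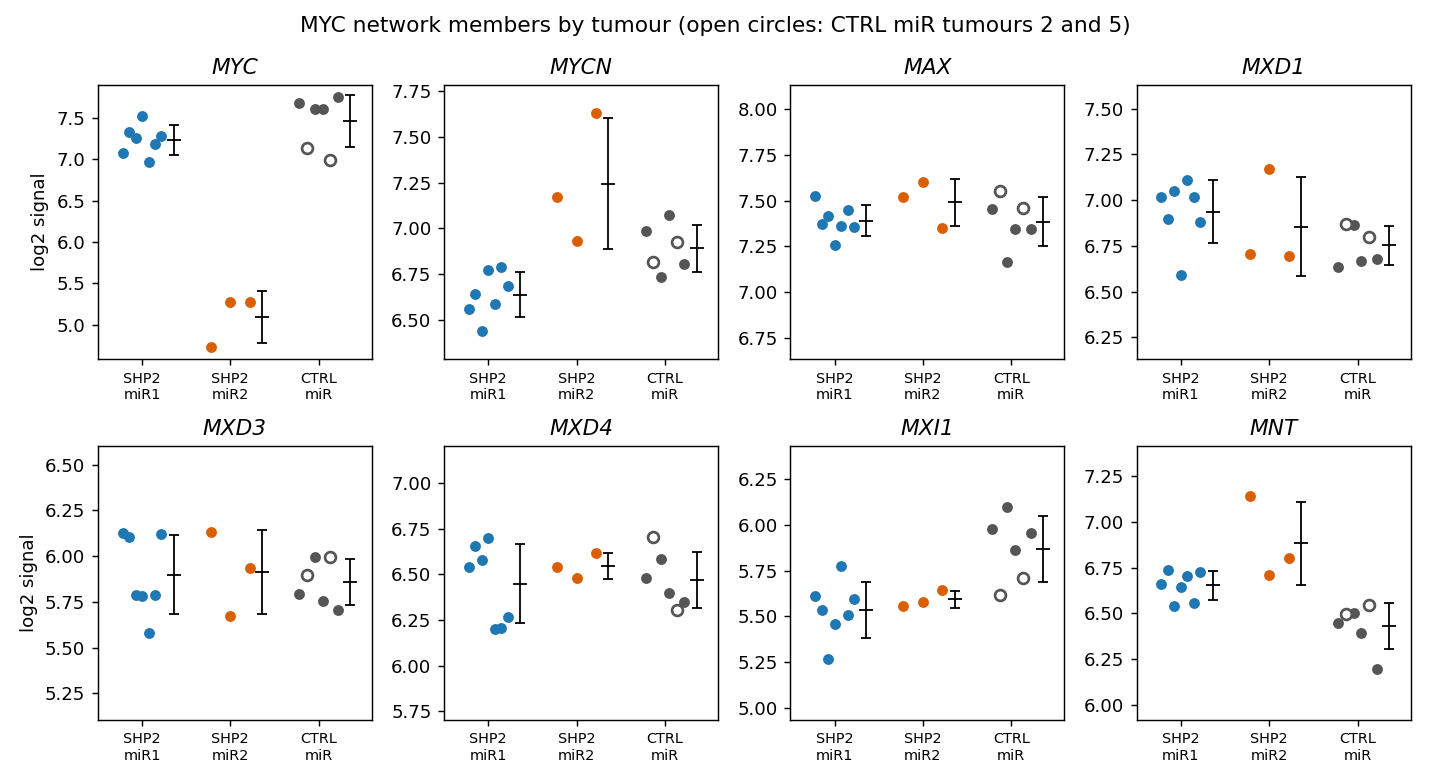
Log2 signal of the 8 members in each tumour (y axes, 1 panel per gene, scales differ) for SHP2 miR1, SHP2 miR2 and CTRL miR (x axis). Points are tumours, open circles are CTRL miR tumours 2 and 5, and the bar beside each group is the mean with its SD; MYC is at 4.73 to 5.28 in the miR2 tumours and at 6.96 or above in all others.

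The control tumours were not uniform for MYC. Tumours 2 and 5 averaged 7.06 ± 0.10, against 7.66 ± 0.06 in tumours 1, 3, 4 and 6, a difference of -0.60 with no overlap. This is a description, since the split was taken from other genes of the same arrays, and 35.6% of all genes had no overlap between these control tumours. Against tumours 2 and 5 alone, the MYC difference was 0.17 with miR1 (SE 0.16, adjusted p = 0.906) and -1.97 with miR2 (SE 0.18, adjusted p = 1.69e-06). Against tumours 1, 3, 4 and 6 alone it was -0.43 with miR1 (SE 0.11, adjusted p = 0.0104) and -2.57 with miR2 (SE 0.14, adjusted p = 3.93e-11). The sign of the MYC difference with miR1 therefore depended on which control tumours were used, while MYC fell with miR2 against both. Within array set B, MYC fell with miR2 by 2.36 (SE 0.20, adjusted p = 5.52e-05). No miR2 array lies in set A.

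MYCN moved apart from MYC. Its log2 signal was 6.56, 6.64, 6.44, 6.77, 6.58, 6.79 and 6.68 in SHP2 miR1 tumours 1 to 7. It was 7.17, 6.93 and 7.63 in SHP2 miR2 tumours 1 to 3. CTRL miR tumours 1 to 6 had 6.98, 6.81, 6.73, 7.07, 6.93 and 6.81. Every miR2 tumour was above every miR1 tumour, and miR2 tumour 2 lay inside the CTRL range. MYCN rose with miR2 by 0.35 against CTRL miR (SE 0.13, adjusted p = 0.0451). The difference between the hairpins, miR1 minus miR2, was -0.61 (SE 0.13, adjusted p = 0.00284), and the difference with miR1 against CTRL miR was -0.25 (SE 0.10, adjusted p = 0.178). The call with miR2 was lost in 11 of the 16 fits that left out 1 tumour. Without miR2 tumour 3 the difference was 0.16 (adjusted p = 0.384), the lowest of these. With the array set as a block it was 0.31 (adjusted p = 0.0977), and against CTRL tumours 2 and 5 alone it was 0.37 (adjusted p = 0.243).

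MAX, the obligate partner of MYC and of the antagonists, was the steadiest member. Its log2 signal ran from 7.26 to 7.52 with miR1 (median 7.37), from 7.35 to 7.60 with miR2 (median 7.52) and from 7.16 to 7.55 with CTRL miR (median 7.40). All 3 groups overlapped. Its SD over 16 tumours was 0.11, and only 2.6% of genes had a smaller one. MAX differed by 0.00 with miR1 (interval -0.16 to 0.17, adjusted p = 0.988) and by 0.11 with miR2 (interval -0.10 to 0.32, adjusted p = 0.421). The miR2 difference was 0.32 after quantile normalization (adjusted p = 0.0219) and 0.31 after cyclic loess (adjusted p = 0.0253), so whether MAX was called depended on the scaling.

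Among the antagonists, MNT, the most broadly expressed of them, rose with miR2. Its log2 signal was 6.66, 6.74, 6.54, 6.65, 6.70, 6.55 and 6.72 in SHP2 miR1 tumours 1 to 7. It was 7.14, 6.71 and 6.80 in SHP2 miR2 tumours 1 to 3. CTRL miR tumours 1 to 6 had 6.45, 6.50, 6.50, 6.39, 6.54 and 6.19. All miR2 tumours lay above all CTRL tumours, and 1 miR1 tumour lay just below the highest CTRL value. The MNT rise with miR2 was 0.46 (SE 0.11, adjusted p = 0.00452), a signal 1.37 times that of CTRL miR. With miR1 the difference was 0.22 (SE 0.08, adjusted p = 0.143), and miR1 minus miR2 was -0.23 (SE 0.10, adjusted p = 0.107). Without miR2 tumour 1 the miR2 difference was 0.33 (adjusted p = 0.0523), and against CTRL tumours 2 and 5 alone it was 0.36 (adjusted p = 0.160).

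MXI1, an antagonist of the MXD family, was lower with miR1. Its log2 signal was 5.61, 5.53, 5.27, 5.46, 5.77, 5.51 and 5.59 in SHP2 miR1 tumours 1 to 7. It was 5.56, 5.58 and 5.64 in SHP2 miR2 tumours 1 to 3. CTRL miR tumours 1 to 6 had 5.98, 5.62, 6.10, 5.86, 5.71 and 5.96. The CTRL tumours that overlapped the knockdown tumours were 2 and 5, at 5.66 ± 0.06 against 5.97 ± 0.10 in tumours 1, 3, 4 and 6. MXI1 fell with miR1 by 0.34 (SE 0.09, adjusted p = 0.0417), and its difference with miR2 was -0.28 (SE 0.12, adjusted p = 0.0766). Against control tumours 2 and 5 alone the differences were -0.13 with miR1 (adjusted p = 0.906) and -0.07 with miR2 (adjusted p = 0.817). Against tumours 1, 3, 4 and 6 alone they were -0.44 (adjusted p = 0.00183) and -0.38 (adjusted p = 0.0109). The call with miR1 was also lost in 11 of the 16 fits that left out 1 tumour, with adjusted p-values up to 0.125.

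MXD1, MXD3 and MXD4 were called in none of the 3 contrasts. MXD1, which is known for its induction as cells leave the cycle and differentiate, ran from 6.59 to 7.11 log2 units with miR1, from 6.69 to 7.17 with miR2 and from 6.63 to 6.87 with CTRL miR. Its differences from CTRL miR were 0.19 with miR1 (adjusted p = 0.333) and 0.10 with miR2 (adjusted p = 0.530). MXD3 ran from 5.58 to 6.13 with miR1, from 5.67 to 6.13 with miR2 and from 5.70 to 5.998 with CTRL miR. For MXD3 the differences were 0.04 with miR1 (adjusted p = 0.903) and 0.06 with miR2 (adjusted p = 0.765). MXD4 had 6.54, 6.66, 6.58, 6.70, 6.20, 6.20 and 6.27 in miR1 tumours 1 to 7, against 6.48, 6.71, 6.58, 6.40, 6.30 and 6.35 in CTRL tumours 1 to 6. Those values split by array set in both groups, with 6.62 ± 0.07 in set A against 6.22 ± 0.04 in set B for miR1, and 6.59 ± 0.11 against 6.35 ± 0.05 for CTRL miR. The miR2 tumours, all in set B, had 6.54, 6.48 and 6.62. The MXD4 difference miR1 minus miR2 was -0.10 (adjusted p = 0.581) without the set in the model and -0.28 (adjusted p = 0.0390) with the set as a block.

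Over the network, 1 of 8 members was called with miR1 (MXI1, lower), in a contrast that called 4.76% of all genes. With miR2, 3 of 8 were called (MYC lower, MYCN and MNT higher), beside 30.0% of all genes. Between the hairpins 2 of 8 were called (MYC higher and MYCN lower with miR1), beside 22.5% of all genes. With 8 members, the 1 call with miR1 cannot set their share apart from that of all genes. In both contrasts with miR2 the shares of members lie near those of all genes, and MYC had the largest difference of the 8. No member separated the miR1 tumours fully from CTRL miR (1.30% of all genes did). MNT and MYC separated miR2 from CTRL miR (17.8% of genes), and MYC and MYCN separated miR1 from miR2 (20.1%). Against control tumours 2 and 5 alone, no member was called with miR1 in limma (0 at an unadjusted p below 0.05, and 0.136% of all genes were called) and MYC alone was called with miR2 (4.37% of all genes). The comparisons of miR1 and of miR2 with CTRL miR share their control tumours.

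**Figure D2:**
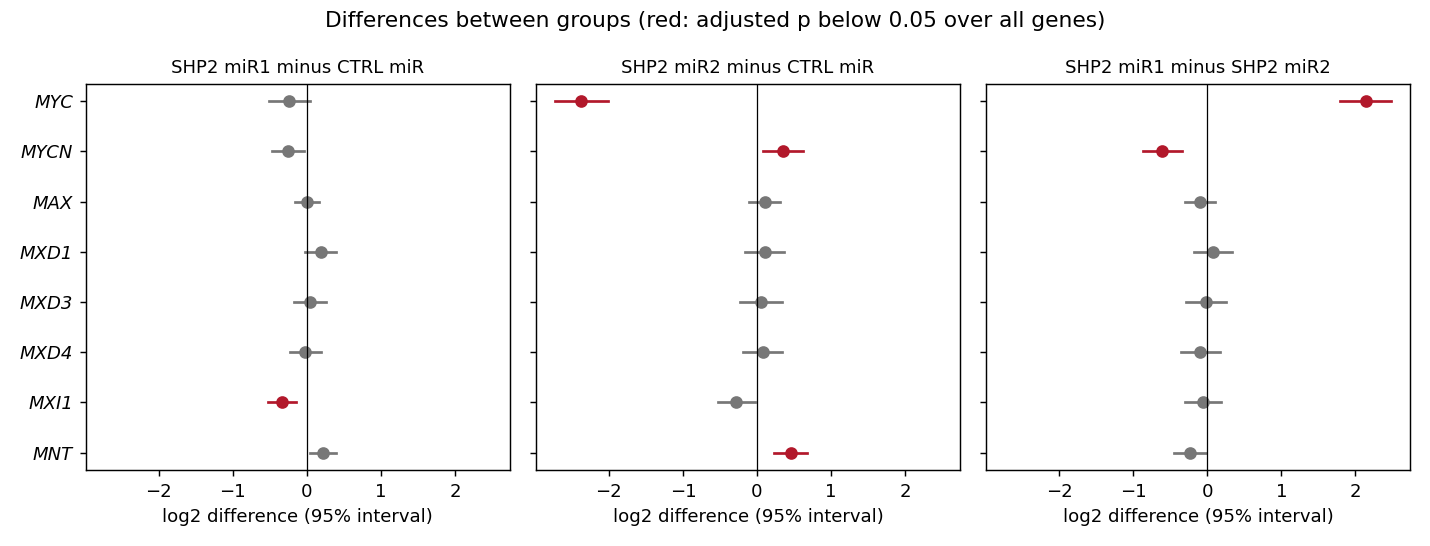
Log2 differences of the 8 members (rows) in the 3 contrasts (panels), with the point as the estimate and the line as its 95% interval; red marks an adjusted p below 0.05 over all genes. MYC lies at -2.37 for miR2 minus CTRL miR and at 2.14 for miR1 minus miR2, while all differences of the other members lie between -0.61 and 0.46.

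**Figure D3:**
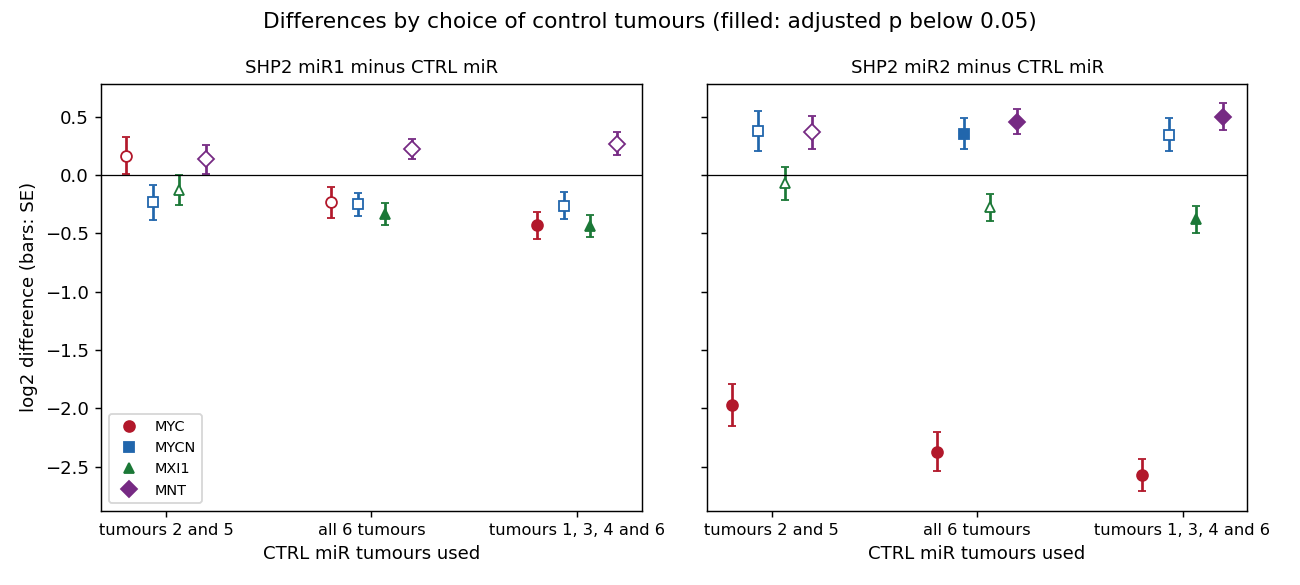
Log2 differences of MYC, MYCN, MXI1 and MNT from CTRL miR (y axis, bars are SE) for miR1 and miR2 when the controls are tumours 2 and 5, all 6 tumours, or tumours 1, 3, 4 and 6 (x axis); filled symbols have an adjusted p below 0.05. MYC with miR1 goes with the choice of controls, at 0.17, -0.23 and -0.43, while MYC with miR2 is at -1.97, -2.37 and -2.57.

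Of 7 other genes of the extended MAX and MLX network, 1 was called with miR2 (30.0% of all genes were) and none with miR1 (1 at an unadjusted p below 0.05 in limma). The gene called with miR2 was MLX, which dimerises with the glucose-sensing factors MLXIP and MLXIPL. It fell by 0.43 (SE 0.09, adjusted p = 0.00301), and was not called after quantile normalization or cyclic loess, nor against CTRL tumours 2 and 5 alone (-0.32, adjusted p = 0.182). MYCL, another MYC paralogue, differed by 0.15 (adjusted p = 0.399), and MGA, a MAX partner, by -0.25 (adjusted p = 0.150). The MLXIP targets TXNIP and ARRDC4, which encode arrestin-domain proteins, differed with miR2 by -0.07 (adjusted p = 0.717) and -0.15 (adjusted p = 0.341).

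Among 15 measured cofactors of MYC and the MXD proteins, 6 fell with miR2 and none rose. Their median difference was -0.26, against 0.02 over all genes. Falls were called in 18.2% of all genes and in 31.6% of the third with the highest mean. RUVBL2 fell by 1.08 (SE 0.13, adjusted p = 2.16e-05) and RUVBL1 fell by 1.02 (SE 0.18, adjusted p = 0.000561). They encode the paired ATPases of chromatin-remodelling complexes that MYC recruits. WDR5, which helps place MYC on chromatin, fell by 0.36 (SE 0.11, adjusted p = 0.0209), and HDAC1, the deacetylase of the SIN3 complex, by 0.33 (SE 0.10, adjusted p = 0.0214). After quantile normalization 2 fell (median -0.09), with cyclic loess 2 fell and 1 rose (median -0.07), and against control tumours 2 and 5 alone 1 fell, RUVBL2 (median -0.14). With the array set as a block 3 fell (median -0.11). Within array set B, which holds every miR2 array, 2 fell (median -0.17). None of the 15 was called with miR1, where 3 had an unadjusted p below 0.05 in limma.

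Of 15 measured genes for MYC phosphorylation and turnover, 8 fell with miR2 and none rose (median -0.33). Beside this, 18.2% of all genes fell, and 31.6% of the third with the highest mean. After quantile normalization 4 fell and 2 rose (median -0.13), and with cyclic loess 4 fell and 1 rose (median -0.13). With the array set as a block 5 fell and 1 rose (median -0.22). Within array set B, which holds every miR2 array, 3 fell (median -0.20). STUB1, a ubiquitin ligase, fell by 0.54 (SE 0.12, adjusted p = 0.00317). CIP2A, an inhibitor of the phosphatase PP2A that stabilises MYC, fell by 1.59 (SE 0.36, adjusted p = 0.0033). USP28, a deubiquitinase that spares MYC, fell by 0.63 (SE 0.14, adjusted p = 0.00386), and BTRC, a ubiquitin ligase subunit, by 0.33 (SE 0.11, adjusted p = 0.0306). Thus stabilising and destabilising factors were both among the falls. In limma, none of the 15 was called with miR2 against control tumours 2 and 5 alone (4 at an unadjusted p below 0.05), and none with miR1 against all controls (3 at an unadjusted p below 0.05).

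Genes that MYC classically induces fell with miR2. Of 28 measured members of that list, 24 fell, none rose and 4 (CCND2, TERT, EIF4E and HSPE1) were not called. The list's median difference was -0.73, against 0.02 over all genes, of which 18.2% fell. SLC7A5, the large neutral amino acid transporter, fell by 1.88 (SE 0.14, adjusted p = 3.61e-08). Its log2 signal was 6.65, 7.01 and 6.93 in miR2 tumours 1 to 3, against 8.43 to 9.07 in the 6 CTRL miR tumours. SHMT2, the mitochondrial serine hydroxymethyltransferase, fell by 1.34 (SE 0.12, adjusted p = 4.7e-07), with 7.11, 7.502 and 7.08 in miR2 tumours against 8.34 to 8.77 in CTRL miR tumours. The miR2 ranges of both genes lay wholly below the CTRL ranges. Both were named for their small adjusted p in this contrast, in which 17.8% of all genes had no overlap. POLR1B, a subunit of RNA polymerase I, fell by 1.12 (SE 0.15, adjusted p = 4.66e-05), and RRS1, a ribosome assembly factor, by 0.98 (SE 0.13, adjusted p = 6.2e-05).

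With SHP2 miR1, 1 of the 28 fell (CCND2, a D-type cyclin, by 1.27, SE 0.32, adjusted p = 0.0263) and none rose. The list median was -0.13, and the contrast called 4.76% of all genes. SLC7A5 differed by 0.31 with miR1 (adjusted p = 0.120), the sign opposite to that with miR2. Directly between the hairpins, 21 of the 28 were higher with miR1 than with miR2 and none lower, with a median of 0.55. Beside this, 14.3% of all genes were higher, and 29.7% of the third of genes with the highest mean. After quantile normalization 13 of the 28 were higher with miR1 (median 0.36), and 9 with cyclic loess (median 0.33). Within array set B 9 were higher (median 0.54). The list's mean log2 signal per tumour was 8.16 to 8.30 with miR1, 7.53 to 7.75 with miR2, 8.08 and 8.12 in CTRL tumours 2 and 5, and 8.47 to 8.56 in CTRL tumours 1, 3, 4 and 6. All 7 miR1 tumours lay between the control tumours of either kind. Against control tumours 2 and 5 alone 7 of the 28 fell with miR2 (median -0.42), beside calls in 4.37% of all genes. SLC7A5, SHMT2, POLR1B and RRS1 were among the 7. SLC7A5 fell by 1.98 (adjusted p = 1.44e-06), and SHMT2 fell by 1.15 (adjusted p = 0.000169). None of the 28 was called with miR1 against these tumours in limma (1 at an unadjusted p below 0.05, median 0.11). With miR2, 23 of the 28 were at an unadjusted p below 0.05 against them in limma. The share of all genes at that unadjusted p was not computed, so this count has no base to set it against.

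Signal level moved with this result. The arrays of miR2 tumours 1 and 3 had a narrower spread of log2 values than the rest, and 21 of the 28 genes are in the third of genes with the highest mean, where the median miR2 difference was -0.19 and 31.6% of genes fell. After quantile normalization the same genes had a median of 0.00 and 17.5% fell, while 20 of the 28 listed genes fell with a median of -0.59. With cyclic loess 20 of the 28 fell (median -0.58), and within array set B 22 fell (median -0.71). With miR2 tumour 2 as the only miR2 array, 3 fell (median -0.67).

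**Figure D4:**
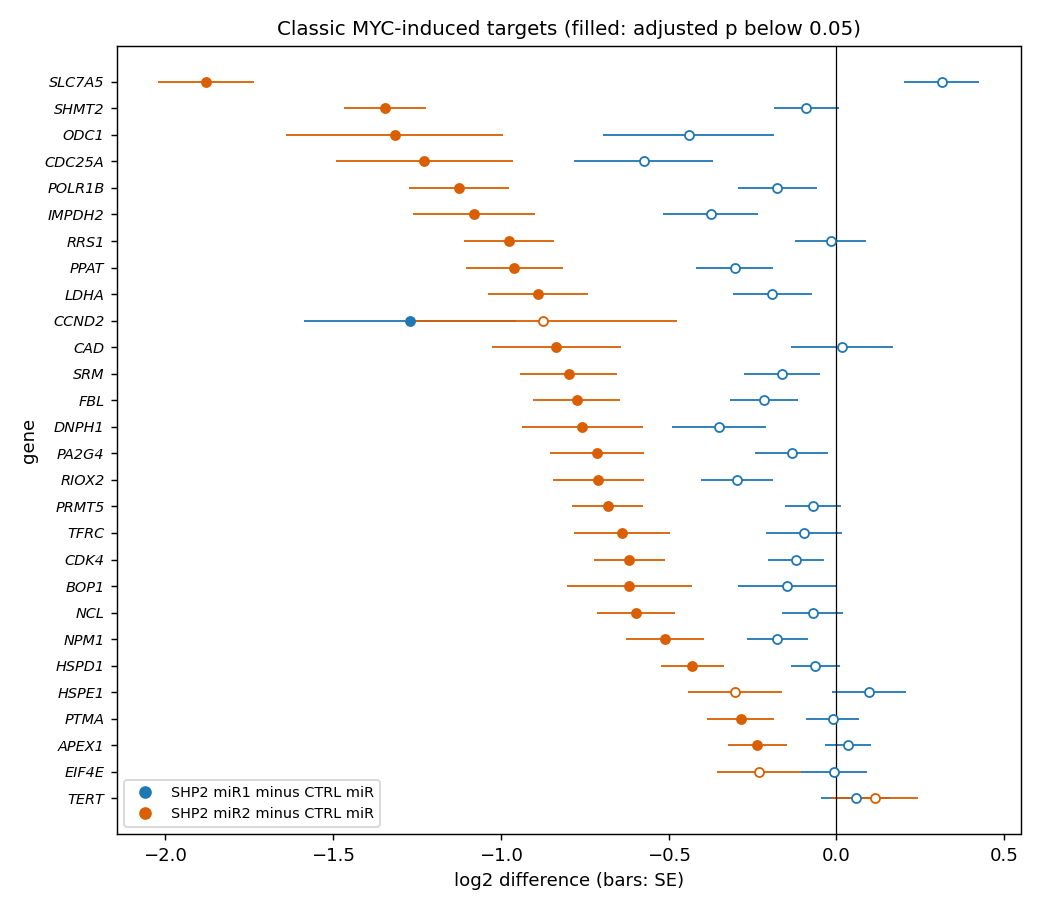
Log2 differences from CTRL miR (x axis, bars are SE) of the 28 measured classic MYC-induced targets (rows, ordered by the miR2 difference) with SHP2 miR1 (blue) and SHP2 miR2 (orange); filled points have an adjusted p below 0.05. With miR2, 24 of 28 fell and SLC7A5 is lowest at -1.88, while with miR1 only CCND2 was called, at -1.27.

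The E-box was looked up in RefSeq promoter windows of 300 bases (250 before to 50 after a transcription start, GRCh38.p14). CACGTG reads the same on both strands, so 1 scan covers both. It occurred in 7.26% of 35116 windows, and in at least 1 window of 8.77% of all genes listed. Of the 14210 measured genes with a window, 10.9% held it. Of the 26 classic MYC-induced genes with a window, 16 held it, including 10 of the 19 that fell with miR2. The 3 that were measured, had a window and did not fall (TERT, EIF4E and HSPE1) all held it too. None of the 8 MYC-repressed genes with a window held it, while the 3 control-state genes IRS4, HOXD10 and LIN28B all did. The list of MYC-induced genes was drawn up from knowledge of MYC targets, with earlier results of these data known, so its share is a description. Stretches around the motif follow for SLC7A5, the listed target that fell furthest with miR2, and for SRM (spermidine synthase), CDK4 (a cell-cycle kinase) and LDHA (lactate dehydrogenase A). CDK4 and LDHA were picked after their values and windows were seen, as their windows hold 3 and 2 copies. Each stretch runs at most 37 bases to either side of the first copy, so those of CDK4 and LDHA do not show every copy. With miR2, SRM fell by 0.80 (adjusted p = 0.000731), CDK4 by 0.62 (adjusted p = 0.000419) and LDHA by 0.89 (adjusted p = 0.000375). Capitals mark each E-box, and sequences run 5′ to 3′ on the gene's strand.
SLC7A5, chr16:87869595-87869674, minus strand: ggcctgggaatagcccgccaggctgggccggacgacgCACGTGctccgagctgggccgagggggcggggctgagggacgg
SRM, chr1:11060175-11060254, minus strand: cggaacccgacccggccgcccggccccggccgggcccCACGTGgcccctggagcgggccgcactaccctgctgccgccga
CDK4, chr12:57752484-57752560, minus strand: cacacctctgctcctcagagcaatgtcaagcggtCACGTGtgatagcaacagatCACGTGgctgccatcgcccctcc
LDHA, chr11:18394341-18394420, plus strand: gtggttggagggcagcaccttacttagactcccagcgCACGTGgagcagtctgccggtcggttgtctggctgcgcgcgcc

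Of the 7 members with a window, MNT and MXD4 held the motif, 1 copy each, and MYCN, MAX, MXD1, MXD3 and MXI1 did not. Their stretches are shown because both are antagonists that use the same element. MNT rose with miR2, while MXD4 was not called.
MNT, chr17:2401211-2401290, minus strand: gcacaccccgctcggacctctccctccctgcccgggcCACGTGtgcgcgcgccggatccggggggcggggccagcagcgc
MXD4, chr4:2262305-2262359, minus strand: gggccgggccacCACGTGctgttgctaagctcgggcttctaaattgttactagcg

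Of 10 measured genes that MYC is known to repress, none rose with miR2 against all CTRL tumours and 1 fell, beside rises in 11.8% and falls in 18.2% of all genes. CDKN1B, the cyclin-dependent kinase inhibitor p27, fell by 0.66 (SE 0.19, adjusted p = 0.0165). Its level also split by array set. Set A arrays had 7.97 or above for CTRL miR and 8.05 or above for miR1. Set B arrays had 7.83 or below for CTRL miR and 7.73 or below for miR1. The miR2 tumours, all of set B, had 7.35, 7.12 and 7.30, below every other tumour. The fall of 0.66 thus compares set B tumours with controls of both sets. NDRG2, a differentiation-associated gene, differed by -0.40 with miR2 (SE 0.16, adjusted p = 0.0689). After quantile normalization or cyclic loess none of the 10 was called with miR2. Against CTRL tumours 2 and 5 alone CDKN1B was not called (-0.67, adjusted p = 0.129), and the 1 gene that fell was THBS1, the matrix protein thrombospondin 1 (-0.96, adjusted p = 0.0106). Against tumours 1, 3, 4 and 6 alone 1 of the 10 rose with miR2 and 3 fell, and with the array set as a block 1 rose and 1 fell. With miR1, GAS1, a growth-arrest gene, fell by 0.62 (SE 0.17, adjusted p = 0.0398), and the other 9 were not called. That contrast called 4.76% of all genes. Against CTRL tumours 2 and 5 alone the GAS1 difference with miR1 was -0.18 (adjusted p = 0.920). Directly between the hairpins 3 of the 10 were higher with miR1 than with miR2 and 1 was lower, beside calls in 22.5% of all genes. Those higher were CDKN1B (0.66, adjusted p = 0.0184), NDRG2 (0.51, adjusted p = 0.0287) and THBS1 (0.65, adjusted p = 0.0406). GAS1 was lower (-0.60, adjusted p = 0.0478). None of the 10 was called between the hairpins after quantile normalization, with cyclic loess or within array set B. With the array set as a block 2 were higher with miR1 and 0 lower. The list medians against CTRL miR were 0.05 with miR1 and -0.17 with miR2.

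Of 14 measured neighbours of MYC at 8q24, 2 rose with miR2 and none fell against all CTRL tumours, beside rises in 11.8% of all genes. None was called with miR1 in limma (5 at an unadjusted p below 0.05). TRIB1, a pseudokinase gene, rose with miR2 by 0.58 (SE 0.15, adjusted p = 0.00673) and MTSS1, an actin-binding protein gene, by 0.55 (SE 0.14, adjusted p = 0.00729). Both calls were lost against CTRL tumours 2 and 5 alone, at 0.36 (adjusted p = 0.232) for TRIB1 and 0.45 (adjusted p = 0.173) for MTSS1. Against tumours 1, 3, 4 and 6 alone 2 neighbours rose with miR2 and 1 fell. Directly between the hairpins 1 of the 14 neighbours was called, beside 22.5% of all genes. That gene was NDUFB9, a subunit of mitochondrial complex I. It was higher with miR1 than with miR2 by 0.60 (SE 0.16, adjusted p = 0.0157). NDUFB9 values for miR1 were 9.35 or above on set A arrays and 9.005 or below on set B arrays. Control values were 9.12 or above and 8.75 or below, respectively. Every miR2 array belongs to set B. With the array set as a block 1 neighbour was higher with miR1, and no neighbour was called when only set B was fitted. After quantile normalization no neighbour was higher with miR1 and 2 were lower, and cyclic loess gave the same counts. The neighbours' median difference with miR2 was 0.05.

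The 6 genes whose centred values lay closest to those of MYC over the 16 tumours were ARSJ, PEG10, TNFRSF10B, ST8SIA6, MGP and SLC7A5. The measure was the root mean square difference, which ran from 0.31 for ARSJ to 0.39 for SLC7A5, where MYC itself deviated from its mean by 0.91. ARSJ, an arylsulfatase gene, differed by -1.89 with miR2 and PEG10, an imprinted retrotransposon-derived gene, by -1.96. TNFRSF10B, a TRAIL death receptor, differed by -1.67 with miR2 and by -0.51 with miR1. ST8SIA6, a sialyltransferase, differed by -2.08 with miR2 and MGP, matrix Gla protein, by -2.28. The choice of these genes used all 16 tumours, in which the miR2 fall makes most of the MYC pattern, so low values with miR2 follow from the choice and are given without a test. When deviations from the 3 group means were used instead, the closest genes were SEC22C, DBF4B, SRM, ATP10D, NEK4 and ATP5IF1, each at 0.11 against 0.24 for MYC.

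Some host-type markers were higher in the miR2 group. The HuGene arrays are made for human genes, so signal for these markers cannot be assigned to mouse host or human tumour cells. Of 10 macrophage and myeloid markers 6 rose with miR2 and none fell, beside rises in 11.8% of all genes and in 16.1% of the third with the lowest mean. Their mean log2 signal per tumour was 4.38 to 4.62 with miR1, 4.57 to 4.96 with miR2 and 4.21 to 4.60 with CTRL miR. Of 11 fibroblast and matrix markers 6 rose and 1 fell. Their tumour means were 4.99 to 5.24 with miR1, 5.24 to 5.38 with miR2 and 4.80 to 5.20 with CTRL miR. The collagen gene COL5A2 was lower with miR2, at 5.73, 5.76 and 5.53 in tumours 1 to 3, against 6.54 to 6.99 with CTRL miR. Of 8 endothelial markers 2 rose, with tumour means of 4.16 to 4.42 with miR1, 4.30 to 4.61 with miR2 and 4.09 to 4.45 with CTRL miR. Against CTRL tumours 2 and 5 alone 1 macrophage, 1 fibroblast and 0 endothelial markers rose with miR2, and with cyclic loess 3, 3 and 1 did. Within array set B, which holds every miR2 array, 2, 4 and 0 rose. With miR2 tumour 2 as the only miR2 array 0 macrophage, 1 fibroblast and 0 endothelial markers rose. In every miR2 tumour 2 of the macrophage, 3 of the fibroblast and 1 of the endothelial markers were below 4 log2 units. Their part in the rises of MYCN and MNT, or in the fall of MYC, was not tested.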

How the data were processed

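Per the labels' protocols, 100 ng of total RNA from each tumour was labelled for HuGene-1_0-st-v1 arrays. The authors' deposited table gives log2 signals by transcript cluster. That they are log2 values is inferred from their range of 1.54 to 13.63. The submitters' processing notes name R 2.10 and oligo 1.8. How background was corrected and arrays were normalized is not given in the sources used. Of 28869 clusters, 19310 carry 1 symbol, and the cluster with the highest mean was kept per gene, with no filter on low values, leaving 18377 genes.

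A 3-group linear model was fitted with limma 3.58.1 in R 4.3.3 (lmFit, eBayes, 13 residual degrees of freedom), and p-values were adjusted after Benjamini-Hochberg. The script was tested on simulated data. The number of arrays limits precision. The members and gene lists were chosen with earlier results of these data known. Named are the members, PTPN11, the control-state genes IRS4, HOXD10 and LIN28B, up to 4 genes per list with the smallest adjusted p, genes that a count of 5 or fewer covers, and the 6 genes nearest to MYC in pattern. CDK4 and LDHA were named outside this rule, after their values were seen. A further 3 genes were to be named for any other member with an SD above 0.3, and none had one. Alternatives were other scalings, clusters, weights, blocks, control subsets and single tumours left out. Array sets were split at the widest gap in the mean of 5 noncoding RNAs. Promoter sequences are from RefSeq (GRCh38.p14), and 7 of 8 members had a window. Listed genes found only in clusters with several symbols were not analysed here. Plots were drawn with matplotlib 3.10.9.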

Additional observations from a re-analysis of the deposited data

Results flagged for a closer look

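MYC and MYCN differed between the hairpins by a direct test. The MYC change with SHP2 miR1 was 2.14 log2 units above that with SHP2 miR2 (limma adjusted p = 5.08e-08), and all 7 miR1 tumours were above all 3 miR2 tumours. The MYCN change with SHP2 miR1 differed from that with SHP2 miR2 by -0.61 log2 units (adjusted p = 0.00284), and all 7 miR1 tumours were below all 3 miR2 tumours. No member had a tumour with an outlying gap in the 16 groups of 6 or 7 tumours that were examined.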

How the results depend on the processing

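The MYC fall with SHP2 miR2 passed the threshold in all 15 alternatives (-2.61 to -1.89) and in all 16 fits without 1 tumour (-2.46 to -2.19), and the MYC difference between the hairpins in all 15 (1.94 to 2.25). MYC with miR1 passed only with array weights (-0.36) and against CTRL tumours 1, 3, 4 and 6 (-0.43), and it had the opposite sign against tumours 2 and 5 (0.17). The count of members called with miR1 was 3 with array weights and 2 against CTRL tumours 1, 3, 4 and 6. It was 0 after quantile normalization, median centring, with all transcript clusters, with an intensity trend and robust prior, in either array set alone, with miR2 tumour 2 alone, with only the 2 groups compared, and against CTRL tumours 2 and 5 with or without the set block, the last being added after the data were seen. Without 1 tumour it ran from 0 to 1. With miR2 the count was 5 after quantile normalization or cyclic loess, and 1 against CTRL tumours 2 and 5 (with or without the set block) or with miR2 tumour 2 alone. Without 1 tumour it ran from 1 to 4, and between the hairpins from 2 to 3. Between the hairpins it was 4 after quantile normalization or cyclic loess and 1 in set B or with miR2 tumour 2 alone. The causes were not tested. Not every same-numbered pair correlated above 0.1, so the numbers were not taken to pair the tumours. Of the 6 pairs of miR1 and CTRL tumours 5 did (0.210 to 0.369), and pair 4, which crosses the array sets, was at -0.302. The 6 pairs with a miR2 tumour ran from -0.420 to 0.022. With the replicate number as a block, 0 members were called with miR1 and MYC differed with miR2 by -2.38. Over all genes, calls ran from 1 to 3454 with miR1 (874 as reported), from 450 to 8868 with miR2 (5508) and from 304 to 7180 between the hairpins (4136). The higher share of calls was 28.9% with miR1 (42.9% after median centring), 39.3% with miR2 (50.2% after quantile normalization) and 63.5% between the hairpins (52.5% after cyclic loess). Signal over background was not analysed here.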
